A study of Homo sapiens with 10 samples.

Results

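The cytosolic ribosomal protein genes were taken from the RNA-seq count table by their symbols, as RPL or RPS followed by a number and an optional letter A, X or L, together with RPLP0, RPLP1, RPLP2 and RPSA. The rule found 82 of the 31017 rows, 49 named for the large and 33 for the small ribosomal subunit. Human H9 ESCs (an embryonic stem cell line), grown in Pluripro media and matrix, were compared with neuroectodermal cells (NECs) that the authors derived from this line and harvested on day 7. Each cell type had 2 biological replicates of mRNA-seq and 2 of Promoter Capture Hi-C (PCHi-C), which reads out the ligated neighbours of captured promoter fragments. No sample carried an introduced allele or a further agent in the labels, and both cell types came from 1 line, so the replicates measure spread between cultures of H9 and not between individuals. Promoter baits were the HindIII fragments that hold the gene start.

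A ribosome joins a large and a small subunit, each built from ribosomal RNA and a fixed set of proteins that are usually needed in equal numbers. Most of these proteins are encoded by a single expressed, intron-containing gene, and vertebrate ribosomal protein mRNAs start with a run of pyrimidines, the 5′ terminal oligopyrimidine (TOP) tract, through which mTOR signalling controls their translation. Their mRNAs are abundant in growing cells and have been copied back into the genome many times as processed pseudogenes, which lack introns and mostly lack function. Such copies resemble the mRNA closely, and a short read from the mRNA can match a gene and its copies equally well.

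The libraries held between 19234087 and 25356382 counted reads. The 10 pluripotency markers summed to between 6637 and 7085 CPM (counts scaled to a common library size) in ESCs and to between 1156 and 1769 in NECs, and all 10 fell. Of the 10 neuroectoderm markers 9 rose and 1, OTX2, fell. Their sum ran from 131 to 209 CPM in ESCs and from 919 to 957 in NECs. POU5F1 remained at 31.0 and 111 normalised CPM in the NEC replicates. Neural crest markers summed to between 136 and 151 CPM in ESCs and between 162 and 298 in NECs, and mesendoderm markers to between 31.9 and 110 CPM over the 4 libraries. Both ESC libraries were sequenced in a lane of their own and both NEC libraries in another, so lane and cell type cannot be told apart. In bulk RNA, fewer cells of a type and less RNA per cell cannot be told apart either.

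The sequences at the start of these genes are shown for the TOP tract, and those inside them for their copies elsewhere in the genome. Start sites were taken from RefSeq on GRCh38.p14, which held 64 of the 82 genes, as the 250 bases before and the 50 bases after the annotated start. A run of at least 8 pyrimidines overlapped the 5 bases on either side of the start in 47 of the 64 genes (73.4%), against 11.3% of 27305 promoters in all. The median run was 11 bases for the ribosomal protein genes and 4 for all promoters. The following 30-base windows begin 15 bases before the start. They belong to 6 of the 10 genes at both ends of the order of change described later, raised and lowered. Capitals mark the pyrimidine run.
RPSA (chr3:39406705-39406734, plus strand): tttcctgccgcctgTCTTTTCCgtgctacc
RPS3A (chr4:151099613-151099642, plus strand): cgactcccacttccgCCCTTTTggctctct
RPL21 (chr13:27251543-27251572, plus strand): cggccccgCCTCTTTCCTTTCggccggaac
RPL41 (chr12:56116618-56116647, plus strand): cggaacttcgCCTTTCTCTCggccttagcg
RPS21 (chr20:62387088-62387117, plus strand): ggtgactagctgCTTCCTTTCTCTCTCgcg
RPL27 (chr17:42998404-42998433, plus strand): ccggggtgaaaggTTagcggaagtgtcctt

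Runs of 7, 8 and 13 pyrimidines were present at RPS3A, RPSA and RPL21, which rose most, and runs of 10 and 15 at RPL41 and RPS21, which fell. A run of at least 8 was thus present at RPSA and RPL21, which rose, and at RPL41 and RPS21, which fell. RPS3A, which rose, and RPL27, which fell, had shorter runs. Whether the run and the change go together over the 64 genes was not tested. RPL27 had a run of 2 at the annotated start. Within the 300 bases, the letters CTTCCG, the core bound by ETS family factors, were present on either strand in 40 of the 64 genes (62.5%) and in 19.9% of all promoters. The letters AAGATGGC, which YY1 binds, were present in 9.38% against 3.03%, and TATAAA in 9.38% against 11.95%. These are matches of letters and not measured binding.

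The coding sequences differed widely in how often they recurred in the genome. The GRCh37 annotation named 1567 processed pseudogenes after these genes, at least 1 for 77 of the 82 genes and at least 10 for 43. Every 50-base window of each coding sequence was therefore searched in GRCh37 on both strands, with up to 2 mismatches. Over the 82 genes, a median of 96.3% of windows matched a site outside the gene and 48.5% matched one without a mismatch. In the windows printed here, which span an exon junction, capitals mark the 2 bases on each side of the junction. In the gene itself an intron interrupts each window at the capitals, whereas the listed copy carries the same letters unbroken.
RPSA, coding bases 91 to 140, 11 exact matches elsewhere, among them chr1:102252640-102252689 (minus strand): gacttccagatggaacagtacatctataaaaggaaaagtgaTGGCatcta
RPS3A, coding bases 525 to 574, 10 exact matches elsewhere, among them chr10:86320749-86320798 (plus strand): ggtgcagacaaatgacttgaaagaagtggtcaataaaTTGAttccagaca
RPL21, coding bases 105 to 154, 20 exact matches elsewhere, among them chr1:22234695-22234744 (plus strand): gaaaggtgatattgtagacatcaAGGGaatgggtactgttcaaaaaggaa
RPS21, coding bases 26 to 75, 0 exact matches elsewhere: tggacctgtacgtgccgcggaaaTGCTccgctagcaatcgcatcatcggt

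Reads counted on the ribosomal protein genes took up a larger share of the NEC libraries. These genes held 4.197% and 3.805% of counted reads in ESC replicates 1 and 2, and 7.49% and 6.43% in NEC replicates 1 and 2. The mean was 4.001% ± 0.277 in ESCs and 6.96% ± 0.750 in NECs (SD, n = 2 each). The lower NEC library lay above the higher ESC library, and 2 libraries against 2 allow no permutation test that reaches 0.05. Without the reads of the mitochondrial genome, the means were 4.15% and 7.10%.

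Of the 82 genes, 80 passed the filter on low counts and were tested with edgeR's quasi-likelihood test over all 17564 genes that passed. At a Benjamini-Hochberg adjusted p under 0.05, 52 rose in NECs, 4 fell and 24 did not pass, with log2 fold changes between -0.32 and 0.38 for those 24. Among all tested genes, 31.5% rose and 29.7% fell. With an absolute log2 fold change above 1.5 required as well, 17 rose and 2 fell, against 11.4% and 9.68% of all tested genes. The median log2 fold change was 0.53 over the 80 genes and 0.01 over all tested genes. Both subunits were represented, with 29 rises and 3 falls among 47 large subunit genes and 23 rises and 1 fall among 33 small subunit genes. In 60 genes both NEC libraries lay above both ESC libraries, and in 8 both ESC libraries lay above both NEC libraries, where 42.8% and 41% of all tested genes did so. With a single ESC library, 40 genes rose without ESC replicate 1 and 35 without ESC replicate 2.

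**Figure D1:**
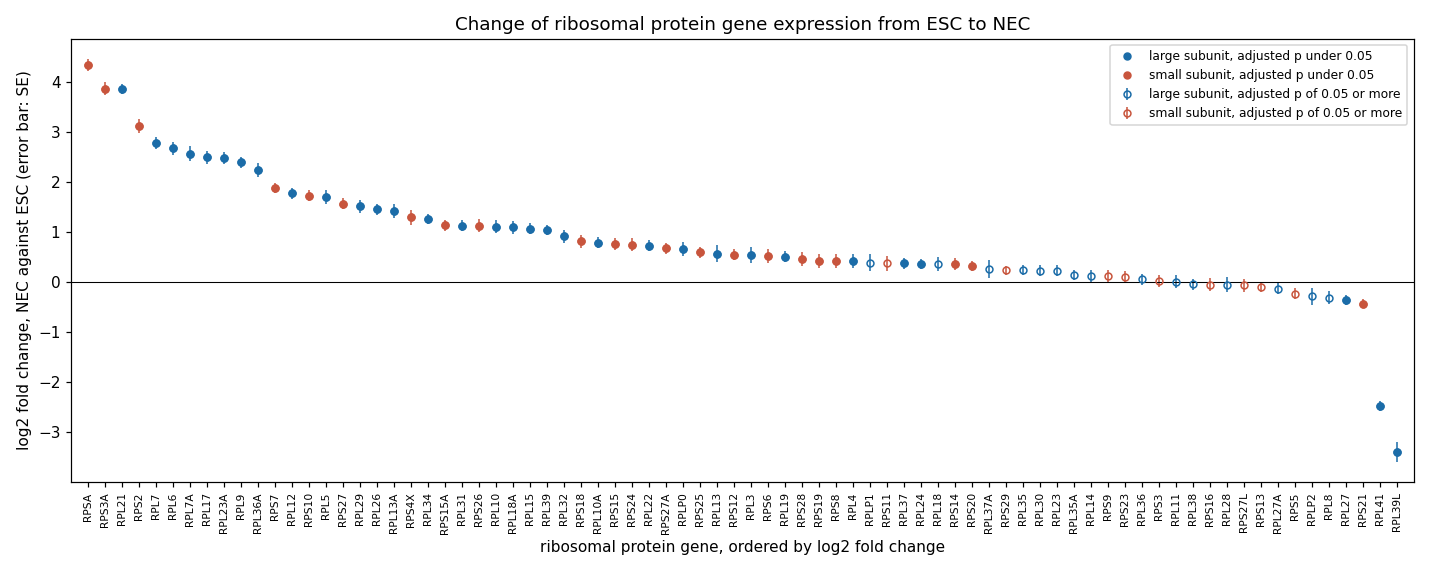
Log2 fold change of 78 of the 80 tested ribosomal protein genes between NECs and ESCs, with its SE as the bar, from edgeR's fit on 2 libraries of each cell type. Filled points passed an adjusted p of 0.05, and colours mark the subunit. The change ran from 4.33 for RPSA to -3.39 for RPL39L, and all but RPL41 and RPL39L of the downward changes were smaller than 0.5 on the log2 scale.

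The 5 genes at the top of this order rose between 6.85-fold and 20.2-fold. RPSA (ENSG00000168028, chr3:39448180-39453929 on GRCh37), a small subunit protein that was also described as a laminin receptor, measured 64.7 and 63.1 CPM in ESCs against 1336 and 1239 CPM in NECs. Both NEC values lay far above both ESC values, and the replicates of each cell type lay close together. This rise was 20.2-fold, or 4.33 on the log2 scale (SE 0.120, edgeR adjusted p 9.6e-06). RPS3A, a small subunit protein near the mRNA exit, rose from 95.2 and 102 CPM to 1529 and 1335 CPM (log2 fold change 3.86, SE 0.134). RPL21, a large subunit protein, rose from 48.1 and 47.4 CPM to 695 and 681 CPM (log2 fold change 3.85, SE 0.102). None of these ranges overlapped between cell types. RPS2, a protein of the small subunit, rose from 208 and 186 CPM to 1815 and 1608 CPM (log2 fold change 3.12). RPL7, of the large subunit, rose from 156 and 144 CPM to 1081 and 971 CPM (log2 fold change 2.78, a 6.85-fold rise).

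A fall was measured for 4 genes. RPL39L (ENSG00000163923, chr3:186838736-186898696), a paralog of RPL39 best known from the male germ line, fell from 89.0 and 84.99 CPM in ESCs to 6.41 and 10.1 CPM in NECs. This was a 10.5-fold fall without overlap of the groups (-3.39 on the log2 scale, SE 0.199), at an adjusted p of 5.71e-05 in edgeR. RPL41 (ENSG00000229117, chr12:56510370-56511727), which encodes a very short peptide of the large subunit, fell from 97.4 and 93.1 CPM to 15.9 and 18.0 CPM, a 5.60-fold fall (log2 fold change -2.49, SE 0.106). RPS21, a small subunit protein, changed from 367 and 327 CPM to 255.2 and 257.8 CPM, or by -0.43 on the log2 scale (SE 0.0989, adjusted p 0.00905 by edgeR). RPL27, a large subunit protein, changed from 679 and 614 CPM to 494 and 513 CPM, or by -0.36 on the log2 scale (SE 0.106, adjusted p 0.0244 by edgeR). RPL8, next in the order, measured 1564 and 1437 CPM in ESCs and 1291 and 1119 CPM in NECs, without overlap, and did not pass (edgeR adjusted p 0.0758). The call for RPL27 was lost when either ESC library was left out, and that for RPS21 without ESC replicate 1 (adjusted p 0.191, 0.0777 and 0.0852 in turn).

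The paralogs RPL39L, RPS27L, RPL10L and RPL3L, which are expressed in a restricted set of tissues or in response to stress, were set beside their parent genes. RPL39 itself rose from 283 and 287 CPM to 623 and 546 CPM (log2 fold change 1.04, edgeR adjusted p 0.000417), while RPL39L fell. RPS27 rose from 228 and 208 CPM to 690 and 598 CPM (log2 fold change 1.56). RPS27L, a p53 target, measured 72.4 and 62.9 CPM in ESCs and 58.5 and 69.96 CPM in NECs, and the groups overlapped (log2 fold change -0.07, SE 0.124). In both pairs the parent recurred more often in the genome. The median number of other sites per coding window was 13 for RPL39 and 2 for RPL39L, and 12 for RPS27 and 1 for RPS27L. All windows of RPL39 and RPS27 (100%) had an exact match elsewhere, against 0% for RPL39L and RPS27L. The part of these copies in the contrast between parent and paralog was not tested. RPL10, a late-joining protein of the large subunit, rose from 567 and 550 CPM to 1305 and 1096 CPM (log2 fold change 1.10). RPL10L, its paralog, had 5, 1, 0 and 0 counts in the ESC and NEC replicates and was not tested. RPL3, which lies near the peptidyl transferase centre, rose from 1957 and 1772 CPM to 3005 and 2413 CPM (log2 fold change 0.54). RPL3L, the striated muscle paralog, had 5, 17, 5 and 2 counts and was not tested.

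Of the 3 proteins of the stalk, where elongation factors bind, RPLP0 passed the test and RPLP1 and RPLP2 did not, and differences between their changes were not tested. RPLP0, the base of the stalk, rose from 1514 and 1476 CPM to 2535 and 2164 CPM (log2 fold change 0.65, edgeR adjusted p 0.0066). RPLP1 measured 905 and 657 CPM in ESCs and 1068 and 970 CPM in NECs (log2 fold change 0.38, edgeR adjusted p 0.0923). RPLP2 measured 492 and 389 CPM in ESCs and 403 and 317 CPM in NECs, with overlapping groups (log2 fold change -0.29, edgeR adjusted p 0.163). With single libraries left out, the log2 fold change of RPLP1 ran from 0.16 to 0.61 and that of RPLP2 from -0.13 to -0.47. RPLP1 passed without ESC replicate 1 (edgeR adjusted p 0.0373), where RPLP0 did not (0.0529), and RPLP2 passed without NEC replicate 1 (0.0312). RPL5 and RPL11, which together with 5S RNA bind MDM2 when ribosome assembly is disturbed, were set side by side. RPL5 rose from 380 and 344 CPM to 1284 and 1058 CPM (log2 fold change 1.70), whereas RPL11 measured 971 and 872 CPM in ESCs and 984 and 858 CPM in NECs (log2 fold change 0.00, SE 0.126).

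Other genes with known roles rose as well. RPS4X, whose gene escapes X inactivation, rose from 854 and 764 CPM to 2187 and 1759 CPM (log2 fold change 1.29). RPS27A, which encodes a fusion of ubiquitin and a small subunit protein, rose from 485 and 446 CPM to 742 and 736 CPM (log2 fold change 0.67). RPS6, the phosphorylated substrate of S6 kinase, rose from 1418 and 1323 CPM to 2108 and 1815 CPM (log2 fold change 0.52). RPS19, mutated in Diamond-Blackfan anaemia, rose from 856 and 718 CPM to 1101 and 1000 CPM (log2 fold change 0.42). The calls for RPL3, RPLP0, RPS6 and RPS19 were lost when either ESC library was left out, with edgeR adjusted p between 0.0529 and 0.272.

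The size of the rise followed how often the coding sequence recurred in the genome. The measure used was the median, over the 50-base windows of a gene, of the number of other genomic sites that matched with up to 2 mismatches. Of the 33 tested genes with a median under 3 sites, 7 rose and 3 fell (21.2% and 9.09%, beside 31.5% and 29.7% of all tested genes). Their median log2 fold change was 0.11. Of the 23 genes with 3 to fewer than 6 sites, 22 rose, with a median of 0.67. All 11 genes with 6 to fewer than 10 sites rose, with a median of 1.51. Of the 13 genes with at least 10 sites 12 rose, with a median of 2.48, and the remaining gene was RPL41. RPL11 and RPS21 had a median of 0 other sites, RPLP0 and RPL3 had 2, RPL5 had 8, RPSA had 20 and RPL21 had 41. Across the 80 genes, Spearman's rho between the log2 fold change and this measure was 0.84, and that with the number of annotated pseudogenes was 0.76. These points share 4 libraries and are not independent. The genes raised more than 1.5 on the log2 scale numbered 0 of 33 under 3 sites and 10 of 13 with at least 10.

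**Figure D2:**
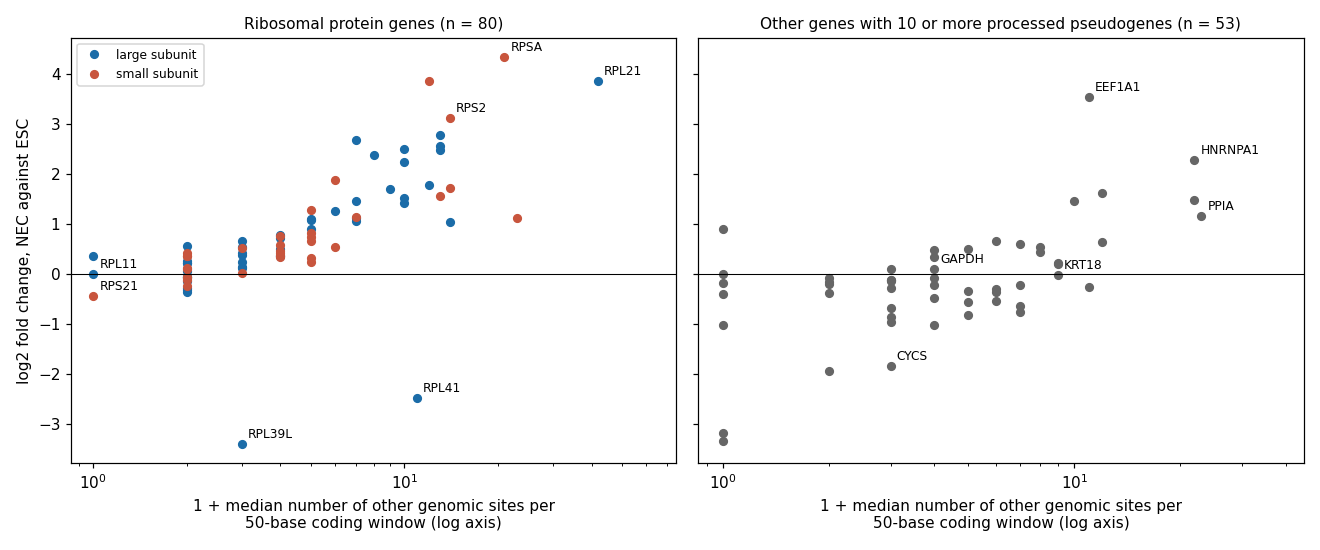
Log2 fold change between NECs and ESCs against 1 plus the median number of other genomic sites per 50-base coding window, on a log axis, for the 80 tested ribosomal protein genes (left, coloured by subunit) and for 53 other genes with 10 or more processed pseudogenes (right). Genes with under 3 other sites had a median change of 0.11 and those with at least 10 had 2.48, and RPL41 and RPL39L lay below the others.

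Levels, rather than changes, were also set against the number of sites in each library. Levels were compared between genes as CPM per kb of coding sequence, since annotated transcript lengths included rare long isoforms. Over the 78 tested genes other than the paralogs RPL39L and RPS27L, the level fell with the number of other sites in both ESC libraries (Spearman's rho -0.71 and -0.67), which is a description across genes. In the NEC libraries rho was 0.06 and 0.08. The SD of the log2 level over the 78 genes was 1.15 and 1.13 for the ESC libraries against 0.65 and 0.59 for the NEC libraries, so the genes lay closer to each other in NECs. RPSA measured 72.2 CPM per kb in ESCs and 1455 in NECs, beside medians over the 78 genes of 1111 and 1035 (ESC libraries) and 1702 and 1485 (NEC libraries).

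**Figure D3:**
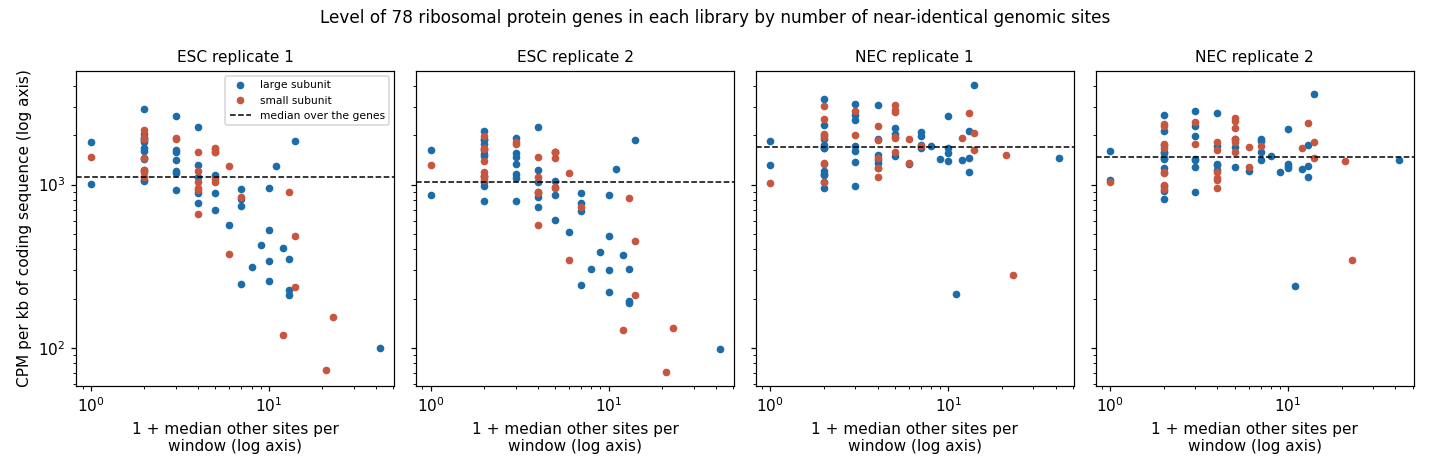
CPM per kb of coding sequence (log axis) of 78 ribosomal protein genes in each of the 4 libraries, against 1 plus the median number of other genomic sites per window (log axis). Dashed lines are the medians. In both ESC libraries genes with many other sites lay low (Spearman's rho -0.71 and -0.67). In both NEC libraries rho was 0.06 and 0.08, and genes with many sites lay on both sides of the median. Among them, RPL39 lay far above it and RPS26 and RPL41 far below.

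Among these 78 genes, the order of the mean level over both cell types had RPL39, RPL37A and RPLP1 at the top and RPS26, RPL23A and RPL41 at the bottom. The 2 paralogs outside the 78 also lay low, with mean levels of 262 CPM per kb for RPS27L and 311 for RPL39L. In ESCs alone the lowest were RPSA, RPL21 and RPS3A, at 72.2, 99.4 and 125 CPM per kb. RPL39 measured 1861 CPM per kb in ESCs and 3818 in NECs, RPL37A 2522 and 3013, and RPLP1 2285 and 2979. RPL37A, a small zinc-binding protein of the large subunit, overlapped between cell types in normalised reads (log2 fold change 0.26, SE 0.185). RPS26, which contacts the mRNA upstream of the start codon, measured 144 CPM per kb in ESCs and 312 in NECs and had 22 other sites. RPL23A, at the exit of the peptide tunnel, measured 207 and 1152 CPM per kb. RPL41 measured 1270 and 226 CPM per kb, so that on this scale it stood near the median in ESCs and far below it in NECs. The coding length was 75 bases for RPL41, 153 for RPL39, 276 for RPL37A and 342 for RPLP1. Reads were counted per gene and not over coding bases alone, so a short coding length can raise the level per kb and the place in this order.

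How reads matching several sites were aligned and counted, and the read length in each lane, are not given in the sources used here. The part of genomic copies and of the lane in the rise of the ribosomal protein genes was not tested. The median log2 fold change was 0.11 in the 33 genes with under 3 other sites and 2.48 in the 13 genes with at least 10. Among the counted rows, 3 were named as pseudogenes of these genes. RPSAP58 had 711 and 841 counts in ESCs and 3888 and 4222 in NECs. RPS10P7 had 10 and 8 counts in ESCs and 10 and 4 in NECs, and RPS4XP21 had 0 and 0 against 0 and 2.

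Genes outside the list with 10 or more processed pseudogenes were examined on the same scale. Of 53 tested, 15 rose and 18 fell, with a median log2 fold change of -0.17. EEF1A1, which carries aminoacyl-tRNA to the ribosome and had 10 other sites per window, rose from 803 and 746 CPM to 9576 and 8283 CPM (log2 fold change 3.53). HNRNPA1, a splicing regulator with 21 sites, rose from 544 and 515 CPM to 2696 and 2461 CPM (log2 fold change 2.28). GAPDH, the glycolytic enzyme, with 64 annotated pseudogenes and a median of 3 sites, measured 3178 and 2661 CPM in ESCs and 2988 and 3286 CPM in NECs (log2 fold change 0.10). KRT18, an intermediate filament protein with 8 sites, had a log2 fold change of -0.01, and PPIA, cyclophilin A, with 22 sites, rose by 1.16 on the log2 scale. Spearman's rho between the change and the number of sites was 0.53 over these 53 genes.

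Most of the translation machinery around the ribosomal proteins did not rise. The 6 ribosomal protein genes whose symbols lie outside the rule include FAU and the paralogs RPL22L1, RPL26L1, RPL36AL and RPL7L1. They gave 2 falls and log2 fold changes below 0 throughout, with both ESC libraries above both NEC libraries in all 6. Among all tested genes, 29.7% fell and 41% had both ESC libraries above both NEC libraries. RPL22L1 fell from 156 and 170 CPM to 41.1 and 45.8 CPM (log2 fold change -1.91). FAU, which encodes a ubiquitin-like fusion of a small subunit protein, measured 283 and 272 CPM in ESCs and 265 and 235 CPM in NECs (log2 fold change -0.15, SE 0.0997).

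The proteins of the mitochondrial ribosome, a separate machine that translates the mitochondrial genome, mostly fell. Of 75 genes tested, 55 fell and 1 rose (73.3% and 1.33%, beside 29.7% and 31.5% of all tested genes). Their median log2 fold change was -0.52. The extremes were MRPS34, which fell by 1.47 on the log2 scale, and MRPL53, which rose by 0.38. Of 31 genes for ribosome biogenesis, the factors that process ribosomal RNA and assemble the subunits, 29 fell and 1 rose (93.5% and 3.23%). Their median was -0.87. UTP20, a component of the small subunit processome, fell from 158 and 178 CPM to 39.8 and 68.5 CPM (log2 fold change -1.63). NPM1, a nucleolar chaperone, rose from 902 and 908 CPM to 1337 and 1480 CPM (log2 fold change 0.64).

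Among 16 elongation and other TOP mRNAs, 5 rose and 1 fell (31.25% and 6.25%, beside 31.5% and 29.7% of all tested genes). Their median log2 fold change was 0.17. EEF1A1 was the highest of them and EIF3K, a subunit of initiation factor 3, the lowest (log2 fold change -0.33). TPT1, a classical TOP mRNA, measured 1254 and 1253 CPM in ESCs and 1374 and 1298 CPM in NECs (log2 fold change 0.09). Of 16 regulators of ribosomal gene expression, 2 rose and 6 fell (12.5% and 37.5%, beside 31.5% and 29.7% of all tested genes). MYC, a transcription factor that activates ribosome production, fell from 94.3 and 86.8 CPM to 9.36 and 18.5 CPM (log2 fold change -2.69), and MXD4, a MAX partner that opposes MYC, rose from 38.99 and 36.7 CPM to 114 and 99.5 CPM (log2 fold change 1.497). Of 18 tested p53 targets, 7 rose and 4 fell (38.9% and 22.2%, near the shares over all tested genes), with FAS the highest (log2 fold change 2.87) and RRM2B the lowest (-1.26).

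**Figure D4:**
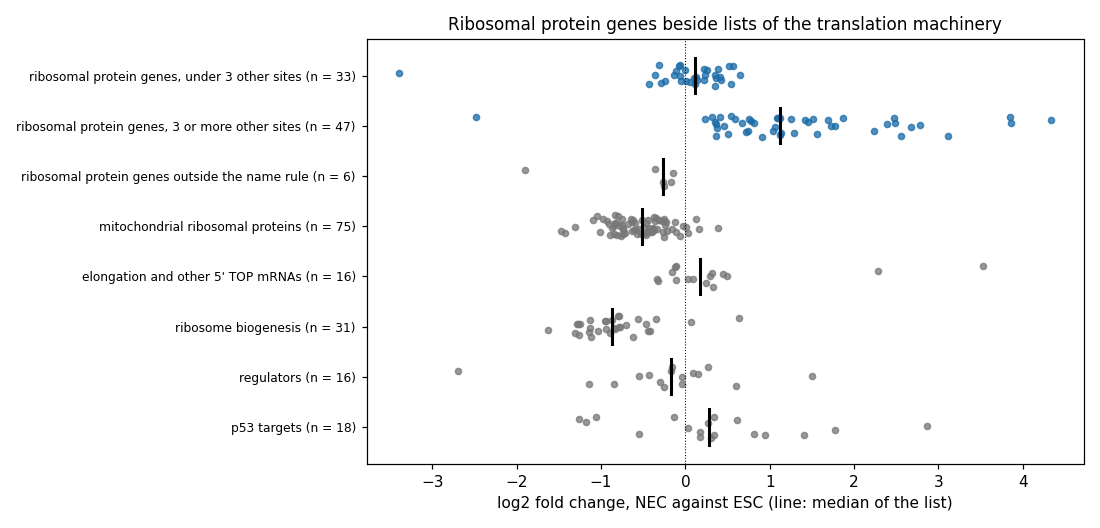
Log2 fold change between NECs and ESCs of single genes (points) and the median of each list (black line), for ribosomal protein genes with under 3 and with 3 or more other genomic sites per coding window and for 6 other lists. Ribosome biogenesis and mitochondrial ribosomal proteins lay below 0, at medians of -0.87 and -0.52, and the 33 ribosomal protein genes with under 3 sites lay at 0.11.

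For comparison with abundant and with short genes in general, counts were taken over other protein-coding genes. Among 1632 other protein-coding genes in the top 10% of expression, 22.6% rose and 43.8% fell, with a median log2 fold change of -0.20. Among 6363 other protein-coding genes in the range of the coding lengths, 29.3% rose and 33.0% fell, with a median of -0.06.

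PCHi-C gave the contacts of the promoters. The lists hold pairs of fragments with a CHiCAGO score of at least 12, and the fragment that a bait was called to contact is its promoter-interacting region (PIR). A bait in at least 1 of the 6 lists held the start of 77 of the 82 genes, on 77 different baits. The start of the other 5, RPL8, RPL13 and RPL39 among them, lay in none. The start of at least 1 further gene lay in 41 of the 77 baits (53.2%), against 19.9% of all 18038 baits with a gene start, so many of these contacts belong to more than 1 promoter. The baits of ribosomal protein genes were also longer, with a median of 9558 bases against 6920.5. The lists give no read numbers, and the depth behind a score is unknown.

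In the merged calls, 59 of 77 baits had at least 1 PIR in ESCs (76.6%, 95% Wilson interval 66.0% to 84.7%) and 66 in NECs (85.7%, 76.2% to 91.8%). Among all baits with a gene start, the shares were 81.7% and 83.5%. In the replicates taken alone, 68 and 67 baits had a PIR in ESCs and 69 in either NEC replicate. The median number of PIRs per bait was 3 in both cell types, as for all baits with a gene start. Baits of other genes in the top 10% of expression had a median of 4.

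The baits with the most PIRs in ESCs were those of RPS13, RPS26, RPS27, RPLP0 and RPL28. RPS13, of the small subunit, went from 34 PIRs (merged ESC calls) to 21 (merged NEC calls). Single replicates gave 19 and 13 for ESCs and 8 each for NECs. Its mRNA measured 506 and 486 CPM in ESCs and 470 and 448 CPM in NECs (log2 fold change -0.11, edgeR adjusted p 0.347). The bait of RPLP0 (chr12:120637397-120643597), which also holds the start of the transcript RP1-278C19.3, went from 22 PIRs to 2 between the merged ESC and NEC calls. Single replicates gave 15 and 9 for ESCs against 2 and 1 for NECs, without overlap, while the RPLP0 mRNA rose. For RPS26 and RPS27 the merged calls and the single replicates gave different directions. RPS26 had 28 PIRs in the merged ESC and 35 in the merged NEC calls, but 20 and 12 in the ESC replicates against 15 and 8 in the NEC replicates, which overlapped. RPS27 had 27 PIRs in the merged ESC and 25 in the merged NEC calls, but 11 and 14 in the ESC replicates against 15 and 32 in the NEC replicates. RPL28 had 21 and 32 PIRs in the merged calls, and 21 and 13 in the ESC replicates against 22 and 17 in the NEC replicates, which overlapped. In the NEC calls RPL27A took the place of RPLP0, going from 7 PIRs to 20, with 4 and 3 against 8 and 7 when replicates were taken alone. RPL27A measured 838 and 786 CPM in ESCs and 771 and 708 CPM in NECs (log2 fold change -0.13).

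**Figure D5:**
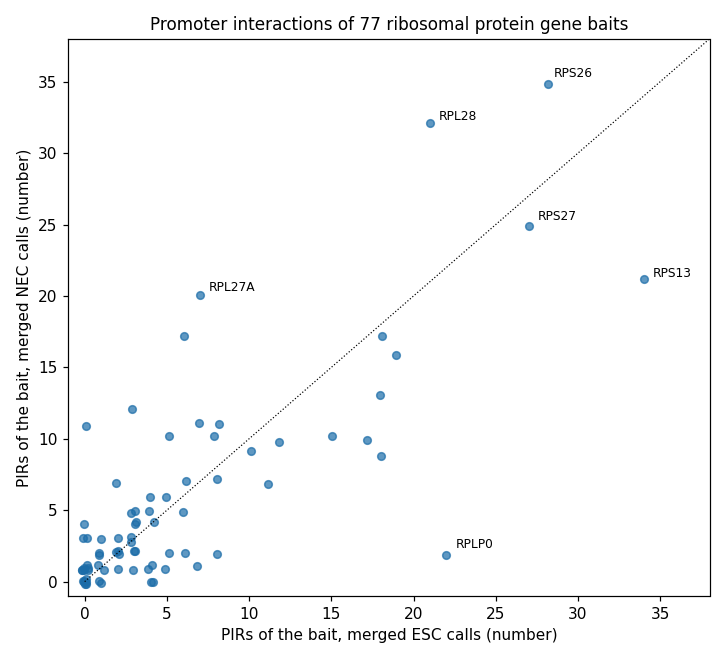
Number of PIRs of each of 77 ribosomal protein gene baits in the merged calls of ESCs and of NECs, with points shifted at random by up to 0.2 so that they can be told apart. The dotted line marks equal numbers. RPLP0 went from 22 in ESCs to 2 in NECs, and RPL27A from 7 to 20.

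Both NEC replicates had more PIRs than both ESC replicates at 9 of the 77 baits and fewer at 12. All baits with a gene start did so at 13.6% and 12.7%, and the shares here of 11.7% and 15.6% were near that background. Across 75 tested genes with a bait, Spearman's rho between the log2 fold change of the mRNA and the change in PIRs was 0.06. The merged calls held 444 interactions of these baits in ESCs and 440 in NECs, all within a chromosome. Their median distances were 137 kb and 181 kb, against 193 kb and 215 kb for all baits with a gene start. In common were 216, which are 48.6% of the ESC and 49.1% of the NEC interactions, against 45.1% and 44.7% for all baits with a gene start. Of the 444 ESC and 440 NEC calls, 88 (19.8%) and 80 (18.2%) were also called in both replicates of their own cell type. For all baits with a gene start these shares were 23.03% and 21.41%. In neither replicate were 156 of the ESC and 136 of the NEC calls. Absence from the other merged list therefore does not by itself show a difference between cell types. All 4 replicates called 31 interactions of these baits. Interactions called in all 4 replicates made up 6.98% of the merged ESC calls, against 8.14% for all baits with a gene start.

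By the criterion of calls in both replicates of a cell type, in neither of the other, a high merged score and absence from the other merged list, 6 interactions were lost from ESCs to NECs and 0 were gained. These were single contacts of RPLP0, RPL41, RPL23A, RPS14, RPS20 and RPS6. The merged calls of these baits held 444 interactions in ESCs and 440 in NECs. Over all baits with a gene start, 676 were lost beside 86656 merged ESC interactions, and 784 were gained beside 87428 merged NEC interactions. Whether the 6 and 0 differ from these shares was not tested. The expression of these 6 genes went in both directions, with RPL41 falling and RPL23A and RPLP0 rising.

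Of the 31 contacts called in both replicates of both cell types, the 5 with the highest score in their weakest replicate are described here. The bait of RPL10A (chr6:35410649-35438751), which also holds the start of FANCE, contacted a fragment 111 kb away with the start of PPARD (chr6:35309629-35317360), scored at 34.1 and 33.9 for ESCs and at 43.7 and 33.8 for NECs when replicates were taken alone. It also contacted a fragment with the start of TEAD3, with scores from 18.9 to 22.3. The bait of RPS20, which also holds the start of CTA-397H3.3, contacted a fragment 126 kb away with scores from 27.1 to 35.8. That fragment holds the starts of PLAG1 and CHCHD7. The RPS20 bait also contacted a fragment without a gene start that is itself a bait, with scores from 17.9 to 27.9. The bait of RPL35, which also holds the starts of WDR38 and ARPC5L, contacted a fragment without a gene start 88.1 kb away. This contact scored 26.6 and 23.03 for ESCs and 42.8 and 26.9 for NECs. The mRNAs of RPL10A and RPS20 rose by 0.78 and 0.32 on the log2 scale, and RPL35 had a change of 0.23 that did not pass.

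Contacts between baits of ribosomal protein genes were called for 2 pairs, each within a chromosome. The baits of RPS26 and RPL41, 68.6 kb apart on chromosome 12, were called from the RPL41 bait with scores of 12.2 in ESCs and 15.2 in NECs, and from the RPS26 bait in NECs with 14.0, in merged calls and in no single replicate. Both baits also hold the start of a further transcript, RP11-603J24.4 for RPS26 and RP11-603J24.17 for RPL41. The mRNA of RPS26 rose and that of RPL41 fell. The bait of RPL23 contacted that of RPL19, 342 kb apart on chromosome 17. The merged scores were 15.99 in ESCs and 12.7 in NECs, and the contact was also called in replicate 1 of each cell type. The RPL23 bait also holds the start of LASP1, and the RPL19 bait that of CACNB1. RPL19 rose by 0.50 on the log2 scale, and RPL23 had a change of 0.22 that did not pass.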

How the data were processed

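The authors trimmed single-end mRNA-seq reads with Trim Galore, aligned them to GRCh37 (TopHat2 2.0.8b and Bowtie 1.0.0 in the submitters' processing notes) and counted reads per gene without regard to strand in SeqMonk on Ensembl gene models. The deposited values are whole-number counts, not normalised, for 31017 rows, and no column of another sample was present (0 left out). The PCHi-C lists deposited by the authors hold a CHiCAGO score per fragment pair, for each replicate and for the replicates combined. The conventional Hi-C was not analysed here. The genes and lists were chosen with earlier results of these data known.

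Genes were filtered by filterByExpr (minimum count 10), scaled by TMM and tested in edgeR 4.0.16 (R 4.3.3) with Benjamini-Hochberg adjustment over 17564 genes and a prior count of 0.125. DESeq2 1.42.0 was an alternative. CPM use the scaled library size, except for summed markers, which use the plain total. Nothing else in the labels separates the cultures, and with 2 replicates a p-value measures the spread between these libraries. Tested on simulated data for this comparison, with 17564 genes, edgeR called 99 of 100 genes changed by 2 on the log2 scale and 82 of 100 changed by 1. Levels per kb use coding length in place of exon length, which was unreliable. Gene positions come from the count table, pseudogenes and coding sequences from GENCODE on GRCh37, and 28731 of 31017 rows had an entry there. Results for some single genes are not reported here.

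Genes given with values were the 5 highest and 5 lowest by log2 fold change, the 3 highest and 3 lowest by level, the paralogs with their parents, stalk genes and genes of known roles, the 5 baits with most PIRs in each cell type, contacts between these baits, the 5 contacts with the highest lowest-replicate score, and the extremes of each list. Other genes outside this rule (TPT1, FAU, the neighbours of contacts and the genes with pseudogenes) were chosen after their values were seen. Intervals are 95% Wilson intervals, which cover counting error only. Python 3.11.15 was used with pandas, scipy and numba.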

Additional observations from a re-analysis of the deposited data

How the results depend on the processing

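Between 50 and 55 ribosomal protein genes rose under DESeq2's size factors, DESeq2's test, library size alone, TMM factors without these genes, other filters on low counts and pseudogene rows added to their parents, and between 4 and 6 fell. Leaving out each library in turn gave 35 to 58 rises, 2 to 7 falls and a median log2 fold change of 0.377 to 0.617. In such fits the lone library of a cell type is assumed to vary like the others. The number of genes raised by more than 1.5 on the log2 scale ran from 15 to 18 there.

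RPL11, at 0.00, turned to -0.022 with DESeq2's size factors, -0.0045 with TMM factors without these genes, -0.00059 without a filter, -0.0013 with the replicate block and -0.019 with DESeq2's test, and ran from -0.097 to 0.092 over single libraries left out. RPS27L ran from -0.21 to 0.055 there. Without the 3 genes with most reads, the mean ESC share of reads was 3.52%. The deviations of same-numbered libraries correlated at 0.061 over all tested genes, which cannot show whether the libraries were paired. The ribosomal protein genes lay lower in replicate 2 of both cell types, by a median log2 difference of -0.12 in ESCs and -0.19 in NECs. With the replicate as a block 55 genes rose and 6 fell. RPLP1, RPLP2 and RPL8 passed in that fit (edgeR adjusted p 0.0213, 0.0271 and 0.0310 in turn).

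At a score of at least 15, the median number of PIRs per bait was 0 in both cell types, 48.1% of baits in ESCs and 46.8% in NECs had an interaction, 62 interactions were shared and 7 were called in all 4 replicates. With calls between baits left out, the median was 1 and the share of baits 57.1% in both cell types. With baits of more than 1 gene start left out, the medians were 2 in ESCs and 1.5 in NECs. With PIRs within 10 kb counted as the same, 77 interactions were called in all 4 replicates. Single replicates gave 87.0% to 88.3% of baits with an interaction in ESCs and a median of 3 to 4 PIRs in NECs. The cause of these shifts was not tested, other than that a stricter score leaves fewer calls.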
